A study of Mus musculus with 10 samples.

Results

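Clustered histone genes were read in total RNA from a brain cell fraction labelled as immune cells, as the protein-coding rows of the deposited raw count table whose symbol begins with Hist1h, Hist2h, Hist3h or Hist4. The rule found 8 of the 45906 rows of the table, namely Hist1h2an, Hist1h2ao and Hist1h2ap of the H2A family, Hist1h2bp, Hist1h2bq and Hist1h2br of the H2B family, and Hist1h4m and Hist1h4n of the H4 family. All 8 lie on mouse chromosome 13, at chr13:21786774-21837530 of GRCm38.p6, and all 8 passed the filter on low counts that kept 17409 genes for testing. The table gives newer symbols to most of the gene family, and a further 59 protein-coding rows carry a deposited description that names a histone cluster. Of the 67 rows, 54 lie on chromosome 13, 10 on chromosome 3, 2 on chromosome 11 and 1 on chromosome 6. The 59 include every clustered H1 and every clustered H3 gene, so the symbol rule alone covers a small and uneven piece of what its name covers. The 8 members are therefore described first and the other 59 are set beside them.

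The cells came from 10 male C57BL/6 mice, 5 given an adeno-associated virus of serotype 1/2 with human α-synuclein carrying the A53T mutation (A53T) and 5 given the same virus as an empty vector (EV). Mice were 10 to 12 weeks old at injection, and RNA was isolated 16 weeks later, at 26 to 28 weeks, from cells of substantia nigra plus striatum after collagenase digestion and a Percoll gradient. The vector's promoter is not stated in the labels, and no cell sort is named. Each library was built from 0.5 ng of RNA with a kit for total RNA that depletes ribosomal sequence, and numbers 1 to 5 name the mice within each group.

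Histones package DNA into nucleosomes. H2A, H2B, H3 and H4 make up the core, and H1 binds the DNA between cores. The clustered genes are transcribed mainly while DNA is copied, and most of their mRNAs end in a conserved stem-loop in place of a poly(A) tail, so that a total RNA library can read them where a poly(A) library largely cannot. Their level is for that reason often read as a sign of dividing cells, and microglia, the resident macrophages of the brain, can divide after injury. Ki-67, the product of Mki67, is a nuclear protein of cycling cells, and Tmem119 encodes a surface protein of microglia.

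The stem-loop is printed because it stands in place of the poly(A) tail that a poly(A) library needs. The histone stem-loop consensus, with 5 of its positions left free, was searched on the sense strand in the last 150 bases of the protein-coding transcripts of GENCODE vM21 (GRCm38), which holds all 8 members. 5 of the 8 members had a match, as did 17 of the other 59 clustered genes. Searched over the whole transcript, the counts were 5 of 8 (62.5%) and 39 of 59 (66.1%), against 72 of 21877 genes (0.329%), since in 22 of the 59 every match lay farther from the annotated end. Over all 21877 genes with a protein-coding transcript there were 22 with a match in the last 150 bases (0.101%), which are these 5 and 17. The matches are given as DNA, with the loop in capitals.
Hist1h2bp: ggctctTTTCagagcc
Hist1h2ao: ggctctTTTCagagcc
Hist1h4m: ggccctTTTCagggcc
Hist1h2ap carried the form of Hist1h2ao, and Hist1h4n carried the form of Hist1h4m. In Hist1h2an, Hist1h2bq and Hist1h2br the letters were not found in the annotated transcripts, which says nothing of bases beyond their annotated ends.

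The promoters are printed because they show how the members sit in the cluster and which of them are near-copies. RefSeq promoter windows of GRCm38.p6, 250 bases before to 50 after each start, were held for all 8 members and for 54 of the other 59. 6 members stand head to head in H2A and H2B pairs that share the stretch between their starts, with 234 bases between Hist1h2an and Hist1h2bp, 167 between Hist1h2bq and Hist1h2ao, and 267 between Hist1h2ap and Hist1h2br. Capitals mark TATAAA and CCAAT on either strand.
Hist1h2an, minus strand, chr13:21787199-21787498: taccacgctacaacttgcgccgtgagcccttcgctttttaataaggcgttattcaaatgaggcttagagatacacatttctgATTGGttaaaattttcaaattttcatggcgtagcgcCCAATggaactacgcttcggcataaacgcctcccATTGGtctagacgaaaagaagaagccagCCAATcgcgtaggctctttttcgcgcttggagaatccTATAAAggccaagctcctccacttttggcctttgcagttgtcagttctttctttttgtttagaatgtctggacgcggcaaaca
Hist1h2bq, minus strand, chr13:21810150-21810449: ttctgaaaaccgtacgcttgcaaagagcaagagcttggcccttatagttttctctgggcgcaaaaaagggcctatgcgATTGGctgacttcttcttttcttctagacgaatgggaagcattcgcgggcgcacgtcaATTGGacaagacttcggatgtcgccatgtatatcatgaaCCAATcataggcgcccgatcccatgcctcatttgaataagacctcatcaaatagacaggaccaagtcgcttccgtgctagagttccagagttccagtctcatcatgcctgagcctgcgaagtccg
Hist1h4m, plus strand, chr13:21811496-21811795: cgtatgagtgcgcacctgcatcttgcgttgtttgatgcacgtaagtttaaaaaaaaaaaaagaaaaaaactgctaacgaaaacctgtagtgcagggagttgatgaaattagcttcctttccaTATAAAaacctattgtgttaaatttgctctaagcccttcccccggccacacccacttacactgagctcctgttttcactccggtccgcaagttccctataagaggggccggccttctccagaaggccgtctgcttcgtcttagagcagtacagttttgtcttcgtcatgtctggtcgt
The window of Hist1h2br is the same as that of Hist1h2bq at all 300 bases. The windows of Hist1h2ao and Hist1h2ap matched at 200 of 200 bases once shifted by 100, and those of Hist1h4m and Hist1h4n at 298 of 299 once shifted by 1. Windows of members outside these pairs were far less alike, with 109 of 230 bases the same between Hist1h2an and Hist1h2ao and 134 of 298 between Hist1h2bp and Hist1h2bq at their best offset. CCAAT was found in 6 of the 8 windows (75%), which are the H2A and H2B members, against 87.3% of the 55 windows of the other clustered genes and 37.4% of all 32851 promoter windows. TATAAA was found in 4 of the 8 (50%) against 56.4% of the windows of the other clustered genes and 13.6% of all windows, and in Hist1h2bp it is the copy of Hist1h2an read from the other side of the shared stretch. The match began 33 bases before the start in Hist1h2an, 128 in Hist1h4m, 127 in its near-copy Hist1h4n and 212 in Hist1h2bp. These shares count a match anywhere in the window. The octamer motif ATTTGCAT was in 0 of the 8 member windows, in 14 of 55 windows of the other clustered genes and in 1.74% of all windows. Both strands were searched and the motifs do not overlap each other.

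The near-copies set how far the rows can be told apart. Windows of 75 bases, the read length, were compared between the members' GENCODE transcripts and those of all other genes. Between 36.9% (Hist1h2bp) and 96.1% (Hist1h2bq) of a member's windows also occurred in another gene, with a median of 88.3%, against a median of 36.2% in the other 59. Hist1h2bq shared 96.1% of its windows with Hist1h2br, Hist1h2ao shared 93.1% with Hist1h2ap, and Hist1h4m shared 89% with Hist1h4n. Counts of Hist1h2bq and Hist1h2br were equal in 9 of 10 libraries and at most 1 read apart. Hist1h2ao and Hist1h2ap were equal in 9 libraries and at most 2 reads apart, and Hist1h4m and Hist1h4n were equal in 7 and at most 6 reads apart. The 8 rows thus gave 5 distinct sets of counts. The labels do not say how reads that match several genes were counted, so a level cannot be tied to a single copy within a pair and the members' sum may hold reads more than once.

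Library totals lay between 12386305 and 21780086 counts, and 3 reads, taken as the limit that a count of 0 allows, came to 0.136 to 0.237 CPM (counts per 1000000 of the scaled library total). Libraries differed within both groups in their content of other RNA. Mitochondrial ribosomal RNA took 10.9% to 47.7% of counts in A53T libraries and 33.4% to 50.9% in EV libraries, and was lowest in A53T 3 and A53T 4. The summed level of 9 microglial genes ranged from 343 to 6692 CPM in A53T and from 394 to 2732 CPM in EV, and that of 9 neuronal genes from 215 to 1176 CPM in A53T and from 655 to 1284 CPM in EV. Genes of cells other than immune cells were abundant in every library: 7 astrocyte genes summed to 1238 to 12670 CPM in A53T and 4927 to 12252 CPM in EV, and 6 oligodendrocyte genes to 3610 to 6119 CPM in A53T and 4784 to 5476 CPM in EV. 5 libraries (A53T 1 and 2, EV 1, 2 and 3) held 100 or more reads of Bpifa2, a gene of salivary glands. The α-synuclein transgene had 1520, 2223, 10, 1397 and 1217 reads in A53T libraries 1 to 5 and 0 or 1 read in EV libraries, so the library labelled A53T 3 was close to the EV libraries by that measure, and the members' results are given without it where they are tested.

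The members were detected in nearly every library at low depth. Together they took 3205 reads, between 61 (A53T 2) and 703 (EV 5) per library, and 7 of the 8 had at least 1 read in all 10 libraries, against 48 of the other 59. Hist1h2an was the exception, with reads in 6 of 10 libraries and a count of 0 in A53T 2 and in EV 1, 2 and 3. Per kilobase of exon, the mean level over the 10 libraries ran from 1.13 CPM in Hist1h2bq to 5.91 CPM in Hist1h2ap, with a median of 3.48, against a median of 4.52 and a highest value of 80.7 in the other 59. In bulk RNA, fewer cells of a type and less RNA per cell cannot be told apart, which holds for every level below. The limit set by 3 reads covers counting error only, since PCR copies could not be told from separate molecules.

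The H2A members, whose product forms a dimer with H2B in the nucleosome core, hold the member rows of widest range, Hist1h2ao and Hist1h2ap. Hist1h2ao was at 2.49, 0.202, 3.77, 4.38 and 0.931 CPM in A53T libraries 1 to 5, against 0.828, 0.612, 1.502, 5.07 and 6.82 CPM in EV libraries 1 to 5. A53T 3 and 4 and EV 4 and 5 were the high libraries, A53T 2 was the lowest, and the groups overlapped over most of their range. Its near-copy Hist1h2ap was at 2.59 CPM in A53T 1 and shared the other values. Hist1h2an was at 1.76, 0, 1.73, 2.86 and 0.559 CPM in A53T libraries 1 to 5, against 0, 0, 0, 3.21 and 1.29 CPM in EV libraries 1 to 5. It was highest in A53T 4 and EV 4, and it was not detected in A53T 2 and in 3 of the 5 EV libraries, where a count of 0 allows a level of up to 0.202 CPM and of up to 0.184 to 0.237 CPM.

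The H2B members were high in the same libraries as Hist1h2ao. Hist1h2bp was at 0.881, 0.202, 1.73, 2.03 and 0.124 CPM in A53T libraries 1 to 5, against 0.621, 0.918, 0.948, 2.95 and 3.10 CPM in EV libraries 1 to 5. Hist1h2bq was at 2.43, 0.538, 3.68, 4.15 and 0.931 CPM in A53T libraries 1 to 5, against 0.828, 1.41, 2.21, 4.09 and 4.39 CPM in EV libraries 1 to 5. In both, EV 4 and 5 were the highest EV libraries and A53T 3 and 4 the highest A53T libraries, and the groups overlapped. Hist1h2br had the values of Hist1h2bq, apart from 4.43 CPM in EV 5.

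The H4 members, which encode the core histone that pairs with H3, had the narrowest range among the 8. Hist1h4m was at 1.66, 1.21, 3.18, 1.85 and 1.30 CPM in A53T libraries 1 to 5, against 0.966, 2.39, 0.948, 1.66 and 3.34 CPM in EV libraries 1 to 5. A53T 3 and EV 5 were again the highest, but EV 2 stood above EV 4, and A53T 2 was not the lowest library. Hist1h4n had the same values as Hist1h4m in 7 libraries and was at 2.12 CPM in A53T 4, 1.49 CPM in A53T 5 and 2.45 CPM in EV 2.

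**Figure D1:**
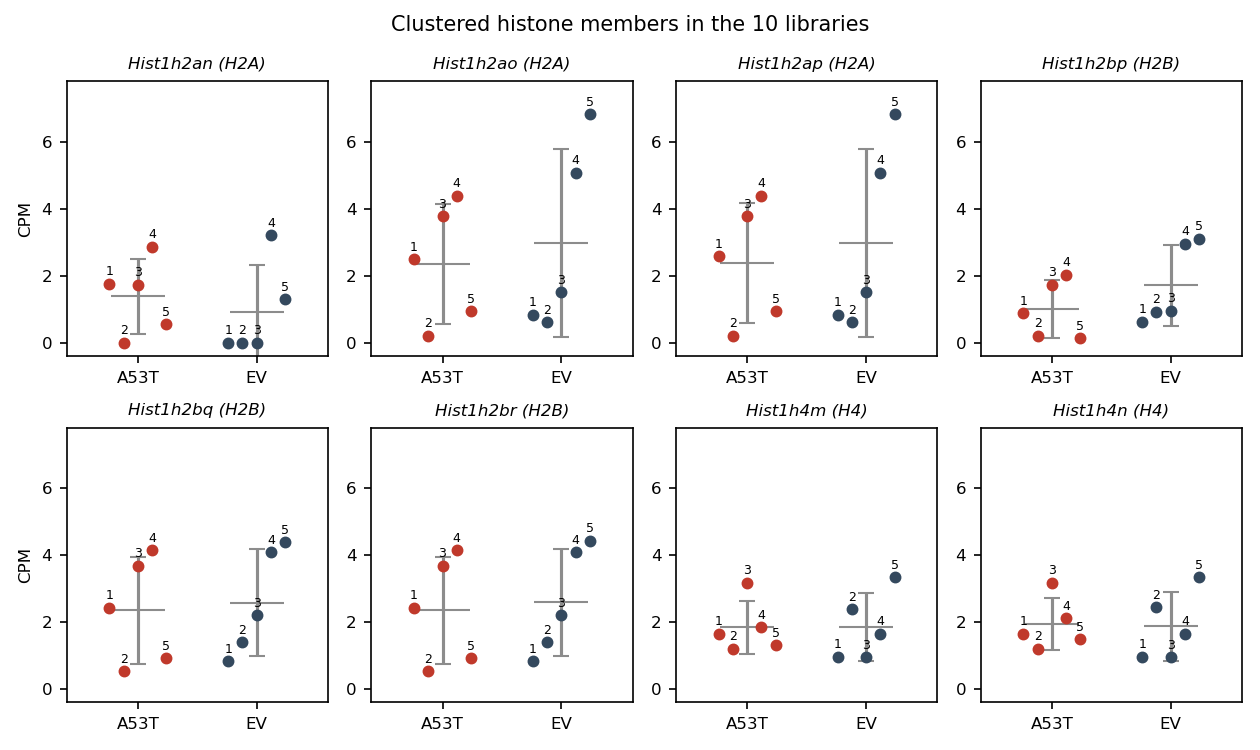
Level of each member in the 10 libraries, in CPM on a linear axis, with A53T at the left and EV at the right of each panel. Points are libraries numbered by mouse, and the grey line and bar are the group mean and SD (n = 5 each). A53T 3 and 4 and EV 4 and 5 are the highest of their groups in all H2A and H2B panels apart from Hist1h2an, and the groups overlap in all 8 panels.

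A53T and EV libraries did not differ in any member by the test. Summed over the 8 members, the level was 15.6 ± 9.91 CPM in A53T and 17.4 ± 12.3 CPM in EV (SD, n = 5 each), a ratio of 0.893, and the range was 4.10 to 25.9 CPM in A53T and 5.87 to 33.5 CPM in EV. 0 of the 8 members passed edgeR's quasi-likelihood test with Benjamini-Hochberg adjustment over all 17409 genes, where 0% of genes were called in all. At an unadjusted p under 0.05 edgeR gave 378 of all genes (2.17%) and 0 of the 8 members. DESeq2 called 2 genes and gave 1006 at an unadjusted p under 0.05, with 0 members by either measure. No member had groups that did not overlap, which 75 genes of all those tested had (0.287% with A53T above EV and 0.144% with A53T below EV).

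The fold changes were small beside their errors. Log2 fold changes (A53T over EV) were below 0 in 6 of the 8 members, against 8209 of all 17409 genes tested. With 1 row of each near-identical pair this was 4 of 5. The median over the 8 members was -0.14, against 0.03 over all genes tested. The largest was in Hist1h2bp, at 0.993 ± 0.867 CPM in A53T and 1.71 ± 1.21 CPM in EV (SD, n = 5 each), with a log2 fold change of -0.77 ± 0.81 (SE) and an adjusted p of 0.957 by edgeR. Hist1h2an went the other way, at 1.38 ± 1.12 CPM in A53T and 0.899 ± 1.41 CPM in EV, with a log2 fold change of 0.60 ± 1.41 (SE) and an adjusted p of 0.959 by edgeR. These errors leave room for a change of either sign. Hist1h2ao was at -0.33 ± 0.83, Hist1h2bq at -0.14 ± 0.64, and Hist1h4m at -0.02 ± 0.51 on the log2 scale (SE), and adjusted p-values over the 8 members ran from 0.957 to 0.997 by edgeR.

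Single libraries decided the sign of the median. Without EV 5 it was 0.24 and without A53T 2 it was 0.05, while without A53T 4 it was -0.44. Without A53T 3, the library with few transgene reads, it was -0.36, with 0 members called. Without A53T 3 and 4 together it was -0.98 and the ratio of summed levels was 0.520, with 0 members called. The level of Tmem119 itself was 106 ± 89.1 CPM in A53T and 43.4 ± 33.4 CPM in EV (SD, n = 5 each, adjusted p of 0.957 by edgeR), and that of Mki67 was 58.7 ± 56.3 CPM in A53T and 67.8 ± 71.1 CPM in EV. With Mki67 as a covariate the members' median log2 fold change was 0.15, and with Tmem119 as a covariate it was -0.99, again with 0 members called in both fits.

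**Figure D2:**
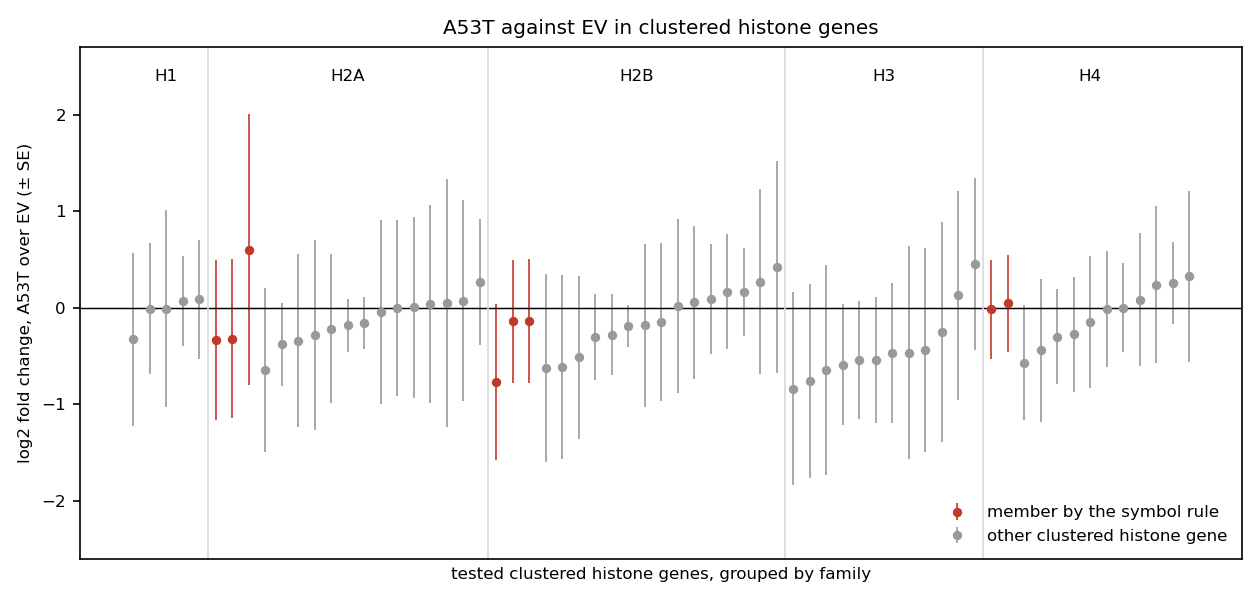
Log2 fold change of A53T over EV for the 65 tested clustered histone genes, grouped by histone family, with the 8 members of the symbol rule in red and the others in grey. Bars are ± SE from edgeR. The values lie between -0.84 and 0.60, and 0 of the genes passed the test.

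Across libraries, the H2A and H2B members rose with Mki67. Mki67 was at 54.7, 0, 132, 97.7 and 9.62 CPM in A53T libraries 1 to 5, against 6.76, 19.3, 34.8, 101 and 177 CPM in EV libraries 1 to 5. The summed members were at 15.9, 4.10, 24.7, 25.9 and 7.20 CPM in A53T libraries 1 to 5, against 5.87, 9.79, 10.3, 27.8 and 33.5 CPM in EV libraries 1 to 5. A53T 3 and 4 and EV 4 and 5 were the 4 highest libraries by both measures, and A53T 2 and EV 1 the lowest. In A53T 2, where Mki67 had 0 reads and so could have been at up to 0.202 CPM, the members still took 61 reads and the other 59 clustered genes 2115 reads.

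A term for the log2 level of Mki67 was fitted beside the group over all genes, with the slope given as log2 units per log2 unit of Mki67. 6 of the 8 members were higher with Mki67 by edgeR's quasi-likelihood test at an adjusted p under 0.05, and 0 were lower, against 12.5% of all genes called higher and 10.8% called lower. Counting each near-identical pair as 1, this was 4 of 5. Hist1h2ao had a slope of 0.51 ± 0.09 (SE, adjusted p of 0.00397 by edgeR), Hist1h2bq of 0.33 ± 0.08 (adjusted p of 0.0138) and Hist1h2bp of 0.37 ± 0.12 (adjusted p of 0.0372). Hist1h2an had the steepest slope and the widest error, 1.11 ± 0.29 (adjusted p of 0.0208), with 4 libraries at 0. With each of the 10 libraries left out in turn, slopes ranged from 0.35 to 0.69 for Hist1h2bp and 0.31 to 0.55 for Hist1h2bq. They ranged from 0.48 to 0.69 for Hist1h2ao and 0.99 to 1.78 for Hist1h2an. In these fits Hist1h2bp no longer passed in 6 and Hist1h2an in 2. Hist1h2ao and Hist1h2bq passed in all 10. The H4 members did not pass, at 0.13 ± 0.08 for Hist1h4m (adjusted p of 0.296) and 0.13 ± 0.08 for Hist1h4n (adjusted p of 0.278). Whether the slopes of H4 and H2A members differ was not tested.

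As a description over the 10 libraries, the log2 sum of the members and log2 Mki67 had a Pearson r of 0.893 and a Spearman rho of 0.964. Each point is a library, so its depth and its mix of cells enter both measures. Without A53T 2 and EV 1, which lie farthest from the median of Mki67, r was 0.973, and with the group means removed it was 0.900. Within the 5 libraries with 100 or more Bpifa2 reads the members' sum ran from 4.10 to 15.9 CPM in A53T (n = 2). In EV it ran from 5.87 to 10.3 CPM there (n = 3). Within the other 5, which held 0 to 37 Bpifa2 reads, it ran from 7.20 to 25.9 CPM in A53T (n = 3). In EV it ran from 27.8 to 33.5 CPM there (n = 2). With a term in the fit for libraries with 100 or more Bpifa2 reads, 0 of the 8 members passed for Mki67, where 3.25% of all genes were called higher. For Tmem119 0 passed, where 4.27% were.

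The same 6 members rose with Tmem119. Tmem119 was at 92.2, 9.22, 189, 206 and 32.5 CPM in A53T libraries 1 to 5, against 10.7, 40.6, 13.7, 62.9 and 89.3 CPM in EV libraries 1 to 5. 6 of the 8 members were higher with Tmem119 by edgeR at an adjusted p under 0.05 and 0 were lower, against 13% of all genes called higher and 12.7% called lower. Slopes on Mki67 and Tmem119 are not on a shared scale, since Mki67 spans a wider range of levels over the 10 libraries. The low end of that range is A53T 2, where Mki67 had 0 reads and the prior count of 2 sets its log2 level. Over the other libraries Mki67 ran from 6.76 to 177 CPM and Tmem119 from 10.7 to 206 CPM. Hist1h2ao had a slope of 0.91 ± 0.19 (SE, adjusted p of 0.00533 by edgeR), Hist1h2bq of 0.64 ± 0.15 (adjusted p of 0.0116), Hist1h2bp of 0.79 ± 0.21 (adjusted p of 0.0167) and Hist1h2an of 1.65 ± 0.48 (adjusted p of 0.0238). Hist1h4m was at 0.34 ± 0.16 (adjusted p of 0.137) and Hist1h4n at 0.35 ± 0.16 (adjusted p of 0.124). The count rested on A53T 2, the library lowest in Tmem119. Without it 2 of the 8 passed, against 5.82% of all genes called higher, and without A53T 3 alone 6 passed for Tmem119 and 5 for Mki67, against 8.47% and 6.88% of all genes. Without A53T 3 and 4 together 0 passed for Tmem119 and 2 for Mki67, against 3.34% and 3.33% of all genes.

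The log2 sum of the members and log2 Tmem119 had a Pearson r of 0.866 and a Spearman rho of 0.782 over the 10 libraries. Without A53T 2 and EV 1, r was 0.736, and with the group means removed it was 0.948. Some libraries of like Tmem119 level differed in their histone level, and others were closer. A53T 1, at 92.2 CPM of Tmem119, had 15.9 CPM of summed members, while EV 5, at 89.3 CPM of Tmem119, had 33.5 CPM. Mki67 was at 54.7 CPM in A53T 1 and 177 CPM in EV 5. A53T 5, at 32.5 CPM of Tmem119, had 7.20 CPM of summed members, and EV 2, at 40.6 CPM, had 9.79 CPM. These libraries were picked after their values were seen. Mki67 and Tmem119 themselves had an r of 0.771 and a rho of 0.806. With both terms in a single fit 0 of the 8 members passed for either gene, where 2 of 17407 genes (0.0115%) were called higher for each. At an unadjusted p under 0.05 by edgeR, the members numbered 0 for Mki67 and 0 for Tmem119, against 6.23% and 5.96% of all genes higher. Of the other 57 tested clustered genes 0 passed for either gene in that fit. At an unadjusted p under 0.05 by edgeR, 5 of the 57 were higher with Mki67 and 18 with Tmem119, beside the same 6.23% and 5.96%. H3c15, H3c14, H2bu2, H4c4, H4c3 and H2ac4 were lower with Mki67 at that p, with slopes between -0.97 and -0.31. The relations of the members to Mki67 and to Tmem119 cannot be told apart in these libraries.

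**Figure D3:**
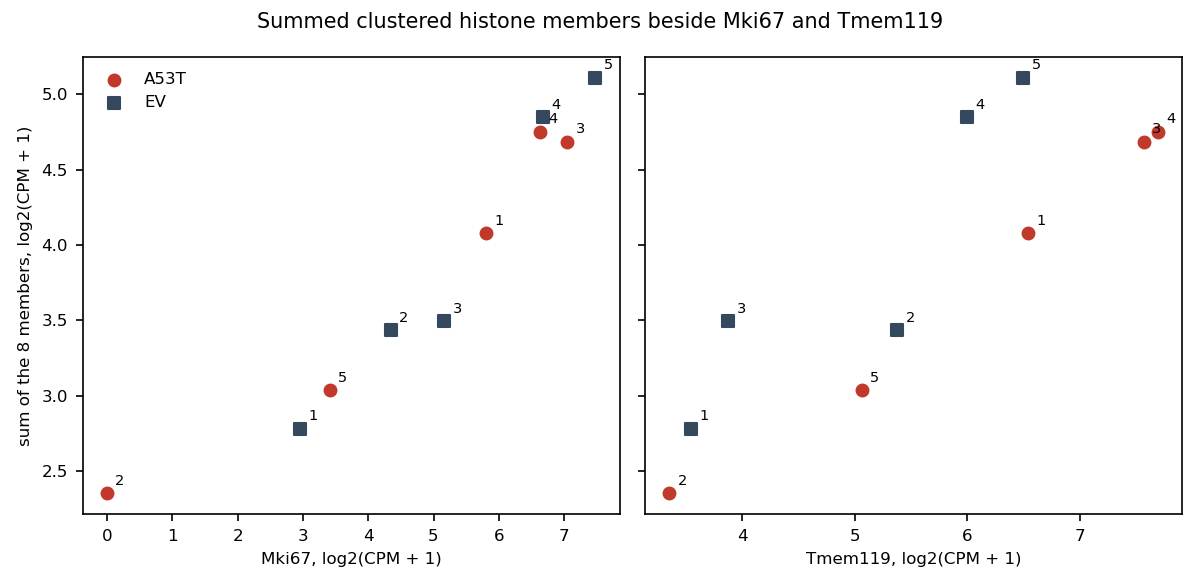
Sum of the 8 members against Mki67 at the left and Tmem119 at the right, each as log2(CPM + 1), with A53T as red circles and EV as dark squares numbered by mouse. A53T 3 and 4 and EV 4 and 5 lie at the upper end of Mki67, and EV 5 lies above A53T 1 at a like level of Tmem119.

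Other cell types' genes moved with the same libraries. All 9 microglial genes were called higher with Mki67 and all 8 tested beside Tmem119 were called higher with it. Of 9 neuronal genes, 0 were called higher and 5 lower with each term, and of 7 astrocyte genes 7 were lower with Mki67 and 6 with Tmem119. Snap25, which neurons use to release transmitter, was at 167, 304, 63.1, 35.3 and 212 CPM in A53T libraries 1 to 5, against 259, 286, 237, 166 and 125 CPM in EV libraries 1 to 5, so the libraries high in histones were low in it. None of the 4 T cell genes passed the filter on low counts. The part of these cell types, of mitochondrial ribosomal RNA and of salivary gland reads in the members' relations was not tested beyond the fits given.

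The other 59 clustered genes carried most of the clustered histone reads. They took 63030 reads, and the members' 3205 were 2.80% to 5.11% of all clustered histone reads per library in A53T and 3.39% to 5.86% in EV. Linker histones held 39.7% of clustered histone reads, H2A 19.1%, H2B 19%, H4 12.2% and H3 10.1%. H1f2 (older symbol Hist1h1c) had 11229 reads, and stood at 59.9 ± 34.9 CPM in A53T and 57.1 ± 32.4 CPM in EV (SD, n = 5 each). H1f4 (Hist1h1e) had 8462 reads, at 44.4 ± 32.7 CPM in A53T and 41.9 ± 31.9 CPM in EV. In the other families the highest counts were those of H2bc4 (Hist1h2bc), H4c4 (Hist1h4d), H2ac18 (Hist2h2aa1) and H3c2 (Hist1h3b), at 3585, 3175, 2467 and 1179 reads. Of genes known for expression in testis, H2ac1 (Hist1h2aa) had 0 reads in all libraries, H1f6 (Hist1h1t) had 28 reads in 3 libraries and H2bc1 (Hist1h2ba) had 232 reads over all 10.

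None of the 57 tested genes among these 59 differed between A53T and EV by edgeR at an adjusted p under 0.05, and 0 had an unadjusted p under 0.05. Their median log2 fold change was -0.16, with 36 of 57 below 0, against 8209 of all 17409 genes tested. H2bc4 (Hist1h2bc) was at -0.19 ± 0.22, H4c12 (Hist1h4k) at -0.57 ± 0.59 and H3c14 (Hist2h3c1) at -0.59 ± 0.62 on the log2 scale (SE). H3c15 (Hist2h3c2), the near-copy of H3c14, was at -0.55 ± 0.61. On the other side, H4c4 (Hist1h4d) was at 0.26 ± 0.43 and H3c7 (Hist1h3f) at 0.45 ± 0.89. The summed level of all 67 genes was 338 ± 180 CPM in A53T and 352 ± 226 CPM in EV (SD, n = 5 each), a ratio of 0.960.

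Counts of genes that passed for Mki67 were uneven over the families. Over all 67, 10 of 12 tested H3 genes, 4 of 5 H1, 9 of 17 H2A, 8 of 18 H2B and 0 of 13 H4 genes were called higher with Mki67 by edgeR, against 12.5% of all genes tested, and 0 were called lower. At an unadjusted p under 0.05 by edgeR, 6 of the 13 H4 genes were higher with Mki67, against 3386 of all 17408 genes tested. For Tmem119 the counts were 11 of 12 for H3, 5 of 5 for H1, 11 of 17 for H2A, 11 of 18 for H2B and 4 of 13 for H4, against 13%. With both terms in a single fit, 0 genes of any family passed for either. The median slope on Mki67 was 0.72 in H3, 0.40 in H2A, 0.36 in H1, 0.33 in H2B and 0.20 in H4. H3c2 (Hist1h3b), an H3 gene, was at 5.49, 0.0673, 13.3, 9.23 and 2.05 CPM in A53T libraries 1 to 5, against 0.345, 1.16, 0.948, 9.68 and 15.4 CPM in EV libraries 1 to 5, with a slope on Mki67 of 0.91 (adjusted p of 0.000459 by edgeR). H2bc4, by contrast, was at 19.9, 24.02, 15.0, 21.7 and 15.3 CPM in A53T libraries 1 to 5, against 28.8, 19.3, 23.2, 16.0 and 21.9 CPM in EV libraries 1 to 5, with a slope of -0.05 (adjusted p of 0.329). It held a near-even level in libraries in which H3c2 ranged from under the limit of 3 reads to over 15 CPM. Near-copies among the 67 are counted as separate genes here, and whether families differ was not tested.

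**Figure D4:**
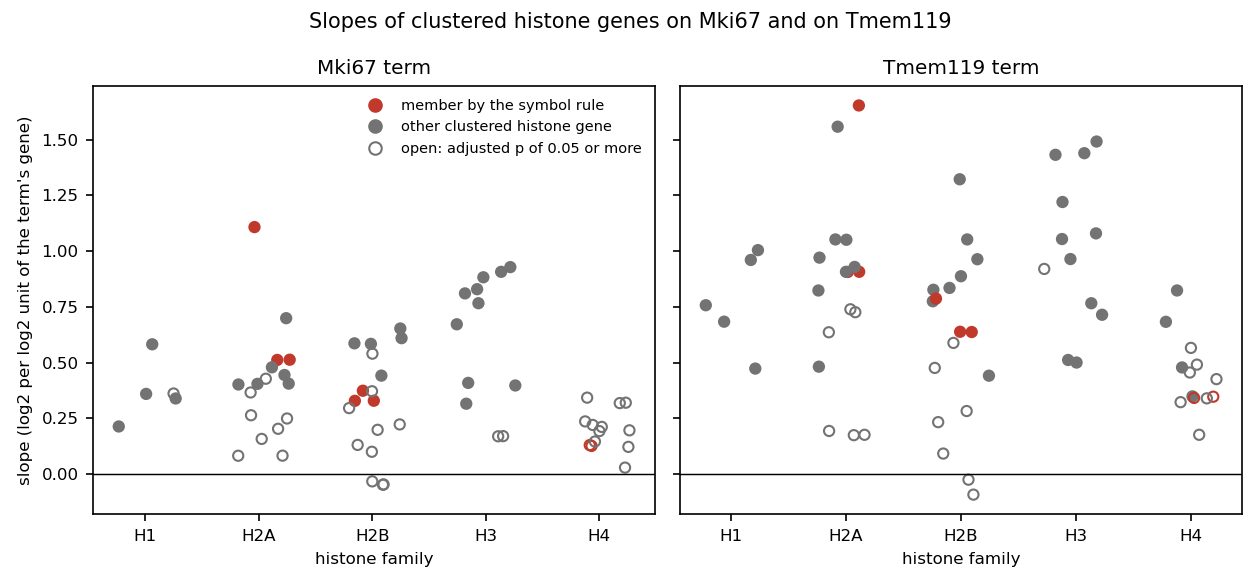
Slopes of the 65 tested clustered histone genes on Mki67 at the left and on Tmem119 at the right, by histone family, in log2 units per log2 unit. Filled points passed at an adjusted p under 0.05 by edgeR and open points did not, with the 8 members in red. H3 slopes on Mki67 have a median of 0.72, and 0 of 13 H4 genes passed.

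Other genes of the pathway are read against the same 12.5% of all genes higher with Mki67 and 13% with Tmem119. Of 16 genes for the transcription, processing and decay of histone mRNA, such as Npat, an activator of the clustered genes, Slbp, which binds the stem-loop, and the U7 proteins Lsm10 and Lsm11, 1 was higher with each of Mki67 and Tmem119 (Tut7, a uridylyltransferase of mRNA decay, with slopes of 0.13 and 0.26) and 1 was lower (Sympk, a scaffold of the cleavage complex, at -0.08 and -0.15). Of 14 tested histone chaperones 1 was higher with each, namely Nasp, which binds H1 and H3, at 0.21 and 0.46. Of 12 genes of histone variants outside the rule, 5 were higher with Mki67 and 6 with Tmem119. They include H3f3b, which encodes the replacement histone H3.3, at slopes of 0.27 and 0.60, and Cenpa, the centromeric H3, at 0.77 and 1.23. Of 20 replication genes 11 were higher with each term, Mcm2 of the replicative helicase at 0.64 and 1.17, and of the mitosis genes 14 of 17 were higher with Mki67 and 13 of 18 with Tmem119. With both terms in a single fit 1 mitosis gene passed for Mki67, and otherwise 0 genes of these lists passed for either term.

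Between A53T and EV, 0 genes of these pathway lists passed edgeR's test. The smallest p among the 16 histone mRNA genes was that of Coil, which organises Cajal bodies, at 9.39 ± 1.11 CPM in A53T and 6.50 ± 1.502 CPM in EV (SD, n = 5 each, log2 fold change of 0.53, adjusted p of 0.957 by edgeR), and among replication genes that of Fen1, the flap endonuclease, at 8.90 ± 3.96 CPM in A53T and 4.53 ± 0.851 CPM in EV (log2 fold change of 0.97, adjusted p of 0.957 by edgeR). Among variants H1f10 was at 10.5 ± 1.56 CPM in A53T and 14.5 ± 3.11 CPM in EV (log2 fold change of -0.46, adjusted p of 0.957 by edgeR). These 3 were the lowest of their lists by p and did not pass the threshold.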

How the data were processed

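RNA of a brain cell fraction labelled as immune cells, from 10 mice, was sequenced as total RNA with a read length of 75 nt. The authors deposited raw counts per gene, not normalized, and a second table of regularized log2 values (rlog) made by the authors from them, over the same 45906 rows. Per the submitters' processing notes the tools were STAR 2.7.2b, featureCounts 1.6.4, cutadapt 2.5 and DESeq2 1.24.0, with the builds mm10 and GRCm38.p6. Settings for strand and for reads that match several genes are not given in the sources used here.

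Counts were fitted with edgeR 4.0.16 in R 4.3.3 (quasi-likelihood F test, robust dispersions, TMM scaling, default filter on low counts), with p-values adjusted over all genes by Benjamini-Hochberg and a threshold of 0.05. CPM are counts per 1000000 of the TMM-scaled total. The terms for Mki67 and Tmem119 were their log2 CPM with a prior count of 2, beside the group, over all genes other than the term's own. Standard errors come from the estimate and its F value. Correlations use log2 CPM with the same prior count. The script was tested on simulated data, with changes put only into genes above a set mean level. That test does not cover the members of lowest level, such as Hist1h2an and Hist1h2bp. Alternatives were DESeq2 1.42.0, limma 3.58.1 on the rlog values, other scaling and filters, covariates, a replicate block and leaving out libraries. Of 45 pairs of libraries none agreed within sampling noise.

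Members and lists were chosen with earlier results of these data known. Named are all members, the clustered genes of highest count per family, testis genes, and genes of smallest p in A53T against EV among other clustered genes and in other lists. H2bc4 beside Mki67, and Tut7, Sympk, Nasp, H3f3b, Cenpa, Mcm2 and Snap25, were named after their values were seen.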

Additional observations from a re-analysis of the deposited data

How the results depend on the processing

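The count of 0 members between A53T and EV held under all 23 alternatives, among them DESeq2, limma on rlog values, other scaling, other filters and each library left out. For the 8 members and 5 other clustered genes with fold changes, 37 of 273 alternative values had the opposite sign, none past the threshold, with a lowest adjusted p of 0.377. Without A53T replicates 3 and 4 together, Hist1h2an was at -0.22, Hist1h4n at -0.37, H4c4 at -0.20 and H3c7 at -0.71. With Tmem119 as a covariate, added after the data were seen, they were at -0.57, -0.24, -0.015 and -0.42. With Mki67 as a covariate, also added then, Hist1h2bq was at 0.16, Hist1h2br at 0.16, Hist1h2ao at 0.13, Hist1h2ap at 0.14 and Hist1h4m at 0.15. Hist1h4n was at -0.082 with the gland term and -0.0011 by DESeq2.

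Members past the threshold fell to 0 for both Mki67 and Tmem119 with the gland term, and to 0 for both with both terms in the fit, where Hist1h4m and Hist1h4n had slopes on Mki67 of -0.19 and -0.18. Without A53T replicates 3 and 4 together they were 2 and 0. Over all 67 clustered genes, an alternative added after the data were seen, they were 31 and 42 of 65 tested.

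The replicate block (the mouse number as a term) gave 0 members for Mki67 and 0 for Tmem119, with 2.42% and 4.44% of all genes called higher, and Hist1h4m at 0.054. Same-numbered libraries had correlations of deviations from -0.37 to 0.31, and none matched its own number best. Bpifa2 reads went with the number in part. They were 477 and 2114 in A53T 1 and 2, and 972 and 1727 in EV 1 and 2. They were 37 and 0 in A53T 4 and 5, and 15 and 24 in EV 4 and 5. A53T 3 and EV 3 differed, at 0 and 1767 reads. Whether libraries of a number shared a preparation step was not tested, so the lost calls are given without a reading.

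Leaving out each library in turn gave ranges of 4 to 6 members for Mki67, 2 to 6 for Tmem119, a Pearson r with Mki67 of 0.884 to 0.980 and with Tmem119 of 0.813 to 0.893. With group means removed, r with Tmem119 was 0.948. The log2 fold changes ranged from -0.44 to 0.14 for Hist1h2bq, -0.45 to 0.14 for Hist1h2br, -0.68 to 0.23 for Hist1h2ao, -0.66 to 0.25 for Hist1h2ap, -0.31 to 0.30 for Hist1h4m, -0.21 to 0.36 for Hist1h4n, -0.96 to 0.034 for H4c12, -0.065 to 0.52 for H4c4 and -0.14 to 1.53 for H3c7. Where a result changed, the cause was not tested. Depth was low for the members, with 61 reads in A53T 2.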

Other observations

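2 clustered histone rows that the deposited table does not list as protein-coding were also read. Hist1h2al, an H2A row on chromosome 13 outside the members' stretch, had 102, 67, 209, 216 and 82 reads in A53T libraries 1 to 5, against 115, 70, 35, 175 and 323 reads in EV libraries 1 to 5, or 1394 reads in all, more than any of the 8 members. Its exons hold 2983 bases, and per kilobase its mean level was 2.47 CPM, below the members' median of 3.48. Its slope on Mki67 was 0.12 (adjusted p of 0.183 by edgeR). H2bu1-ps, an H2B pseudogene row on chromosome 11, had 86 reads in 7 libraries, and its slopes were 0.92 on Mki67 (adjusted p of 0.0256 by edgeR) and 1.61 on Tmem119 (adjusted p of 0.0118 by edgeR). Between A53T and EV their log2 fold changes were -0.20 and -0.24, with adjusted p-values of 0.959 and 0.982 by edgeR.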
